A study of Mus musculus with 2 samples.

Results

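Pattern recognition receptors are germline-encoded sensors of microbes and of cell damage, and 3 of their families are described here with the proteins that carry their signal, as mRNA in bone marrow (BM) LSKs. Members were every gene whose symbol begins Tlr, Clec, Nlrp, Nlrc or Nlrx followed by a digit, together with Nod1, Nod2, Irak1 to Irak4, Myd88, Tirap, Ticam1, Cd14 and Ly96, with pseudogene names left out. This rule gave 79 of the 34745 genes in the deposited tables, of which 12 were Toll-like receptors (TLRs), 2 TLR co-receptors, 7 adaptors or kinases, 25 NOD-like receptors (NLRs) and 33 C-type lectin genes. The rule used symbols alone and no measured value.

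The LSKs, lineage-negative BM cells positive for Sca1 and c-Kit, came from C57BL/6 mice carrying the tet-off transgenes Scl/tTA and BCR/ABL (BA), in which withdrawal of doxycycline turns BA on. Both groups carry these transgenes, and they differ in the time since BA was induced, 0 weeks (week-0, the control) or 3 weeks (week-3). The study describes the week-0 mice as fed on doxycycline, whereas the week-3 mice had been off it for 3 weeks. Effects of BA induction and of the loss of doxycycline therefore cannot be told apart. The Scl element directs the transactivator to stem and progenitor cells, and not every LSK need express BA. Each group was 1 RNA-seq library made from the cells of 3 mice mixed together, which leaves no measure of variation between mice, and what is compared throughout is these 2 libraries. The ages and sexes of the mice are not given in the sources used here.

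TLRs sense microbial lipids, proteins and nucleic acids at the cell surface or in endosomes, and most of them signal through Myd88 and the IRAK kinases to NF-kappaB and interferon regulatory factors. NLRs are cytosolic, and some of them assemble inflammasomes that activate caspase-1, whereas Nod1 and Nod2 sense fragments of bacterial cell walls. C-type lectin receptors bind glycans and damaged-cell ligands, and many of them signal through Syk, either by a motif of their own or through the adaptors Fcer1g and Tyrobp. Hematopoietic stem and progenitor cells are known to carry TLRs and to respond to their ligands, but mature myeloid cells express most of these families more highly.

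Each gene had the reads that the authors counted and an FPKM, in which reads are scaled by exon length and library size. Reads on genes numbered 6356164 before and 3886695 after induction. RPM are the reads of a gene per 1000000 reads on genes. Where 2 values stand side by side, week-0 comes first. A difference is given as the log2 ratio of FPKM, week-3 over week-0, and a gene is said here to be past the fold when that ratio was at least 2 or at most 0.5 and the gene had at least 20 reads over both libraries. With 1 library per group there is no replicate check and no p-value is given. The 95% intervals are exact Clopper-Pearson intervals from the reads. They take in counting error and nothing else, and they treat each read as independent. The cDNA was amplified and its reads are not separate molecules, so the intervals can be too narrow even for counting error. Of 12192 genes with at least 20 reads, 10.6% were past the fold upwards at week-3 and 15.6% downwards.

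The markers of the sort were present in both libraries. All 12 stem and progenitor markers on a list, among them Kit, Ly6a (the gene of Sca1) and Cd34, had reads at both time points. Their sum went from 2610 to 1294 RPM, with Kit at 1391 and 580 reads. Marker lists of other cell types differed between the libraries as well. Of 12 neutrophil markers 11 had at least 20 reads, 10 of them past the fold upwards, and the sum of the list went from 2567 to 10489 RPM. Most of that sum came from Elane (858 and 4732 RPM) and Mpo (1486 and 4756), so it does not by itself describe mature neutrophils. Cxcr2 was within 2-fold and Ly6g had 5 reads in each library. The 14 monocyte and macrophage symbols, listed in 15 rows, summed to 277 and 1067 RPM, with 3 of the 9 rows of at least 20 reads past the fold upwards and none downwards, and Fcgr1 and 1 of the 2 rows of Itgam without reads at week-0. The 9 markers of conventional dendritic cells summed to 617 and 75.4 RPM. Most of that came from the MHC class II pathway genes Cd74 (394 and 12.1 RPM), H2-Ab1 (163 and 50.7) and H2-Aa (45.3 and 6.17). The 8 markers of mast cells and basophils summed to 345 and 3938 RPM. In these mixed-cell libraries, fewer cells of a type and less RNA per cell cannot be told apart.

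**Figure D1:**
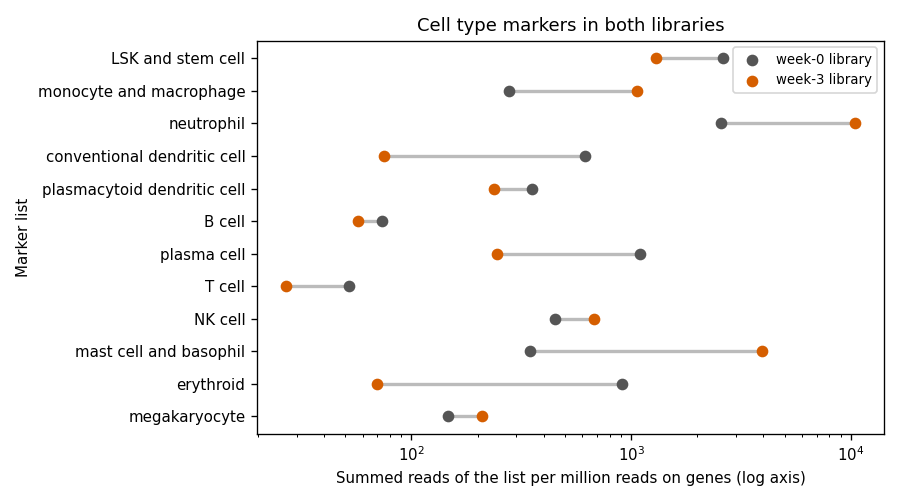
Summed RPM of each marker list (log axis) in the week-0 library (grey) and the week-3 library (orange), 1 library each. Neutrophil markers went from 2567 to 10489 RPM, mostly reads of Elane and Mpo. Conventional dendritic cell markers went from 617 to 75.4, mostly reads of Cd74, H2-Ab1 and H2-Aa.

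Among the 79 members, 31 had at least 20 reads over both libraries, 26 had between 1 and 18 reads, and 22 had none. At week-3, 7 members were past the fold upwards (22.6% of the 31, against 10.6% of all genes) and 6 downwards (19.4%, against 15.6%). The remaining 18 stayed within 2-fold. The members higher at week-3 were Clec5a, Clec7a, Nlrp10, Tirap, Clec10a, Irak4 and Clec12a, and those lower were Nlrp3, Nod2, Clec1a, Irak2, Clec16a and Nlrc3. The median log2 difference of the 31 members was 0.24, beside 0.07 for all genes with as many reads. Each of these 13 genes had a counting interval that left out a ratio of 1. Of the 13, 4 had fewer than 50 reads over both libraries, namely Clec1a, Nod2, Clec7a and Nlrp10. In each of these the library with the higher value supplied at least 20 reads by itself, so passing the minimum and differing were not independent.

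**Figure D2:**
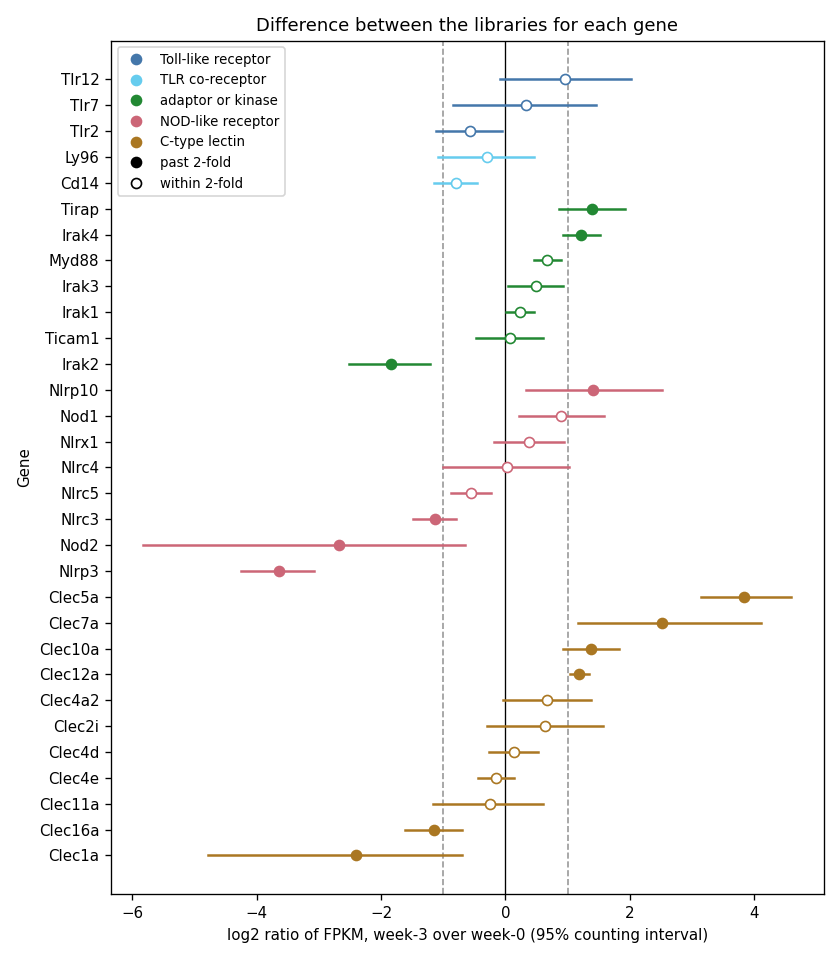
Log2 ratio of FPKM, week-3 over week-0, for the 31 members with at least 20 reads (points) with 95% counting intervals (lines), coloured by class, with dashed lines at a 2-fold difference. Nlrp3 at -3.64 and Clec5a at 3.83 lie farthest from 0, with intervals that do not reach the dashed lines.

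The members shown next carry the largest differences or the most reads, and the 300 bases around their transcription starts (250 before and 50 after, from RefSeq on GRCm38.p6, in the direction of the gene) are shown because a promoter is where factors that set these levels could act. Capitals mark matches on either strand to the NF-kappaB consensus, to GAGGAA, the core of the PU.1 motif, and to TTGCNNAA, a C/EBP motif. PU.1 and C/EBP are regulators of myeloid genes, and NF-kappaB is the factor that TLRs activate. The Nlrp3 window is chr11:59541319-59541618 on the plus strand, and the Clec5a window is chr6:40585756-40586055 on the minus strand. The Clec12a window is chr6:129349994-129350293 on the plus strand, and its RefSeq start lies 7553 bases inside the deposited gene.
Nlrp3: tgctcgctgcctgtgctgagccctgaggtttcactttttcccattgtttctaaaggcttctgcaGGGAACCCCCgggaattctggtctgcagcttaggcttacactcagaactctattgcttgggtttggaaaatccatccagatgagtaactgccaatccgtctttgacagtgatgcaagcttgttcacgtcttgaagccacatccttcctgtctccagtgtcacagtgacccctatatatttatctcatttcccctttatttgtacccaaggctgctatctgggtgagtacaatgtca
Clec5a: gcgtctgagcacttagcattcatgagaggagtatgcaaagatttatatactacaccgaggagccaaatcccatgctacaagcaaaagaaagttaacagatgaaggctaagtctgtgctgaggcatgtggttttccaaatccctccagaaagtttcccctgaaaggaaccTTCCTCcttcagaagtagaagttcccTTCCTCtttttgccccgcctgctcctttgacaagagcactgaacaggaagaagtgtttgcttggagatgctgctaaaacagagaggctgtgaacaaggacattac
Clec12a: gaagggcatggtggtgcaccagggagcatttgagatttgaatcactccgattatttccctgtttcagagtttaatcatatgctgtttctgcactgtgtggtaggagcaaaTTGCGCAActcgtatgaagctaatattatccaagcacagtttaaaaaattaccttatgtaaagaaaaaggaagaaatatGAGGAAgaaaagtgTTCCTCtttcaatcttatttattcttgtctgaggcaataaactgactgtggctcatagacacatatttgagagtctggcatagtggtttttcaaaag

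The Nlrp3 window held 1 match to the NF-kappaB consensus, 186 bases before the start. The Clec5a window held 2 matches to GAGGAA, 81 and 55 bases before the start. The Clec12a window held 2 such matches, 61 and 47 bases before the start, and 1 match to TTGCNNAA that reads the same on both strands, 140 bases before it. No matches overlapped another motif in these windows. Of 32851 windows of all genes, 4.51% held the NF-kappaB consensus, 28.3% GAGGAA and 10.8% TTGCNNAA. Windows were found for 62 members and for 10 of the 13 members past the fold, and among these 10 the NF-kappaB consensus was in Nlrp3 alone, GAGGAA in 5 (Clec5a, Clec7a, Clec12a, Clec16a and Nlrp3) and TTGCNNAA in 2 (Clec12a and Clec16a). Nlrp3 has 2 RefSeq windows, and its GAGGAA match lies in the one not printed. A match in letters is a description and not evidence of binding.

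Levels can be compared between genes only per length. The deposited FPKM imply exon lengths that, among the 31 members, had a median of 1.46 times the merged exons of GENCODE M21 and reached 2.82 times for Tlr7, so the FPKM of such genes are low relative to others. Levels between genes are therefore given as reads per kilobase of merged exons per 1000000 reads on genes. Ratios between the libraries do not depend on length. In the week-0 library the highest members on this scale were Cd14 (25.3), Myd88 (23.4), Nlrp3 (21.3), Clec12a (15.7), Clec4d (13.7) and Irak1 (12.9). In the week-3 library they were Myd88 (37.4), Clec12a (35.8), Irak1 (15.2), Clec4d (15.0), Cd14 (14.6), Irak4 (11.7) and Clec5a (11.1). Nlrp3 was thus among the most abundant members at week-0, and at week-3 its level was 1.71.

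**Figure D3:**
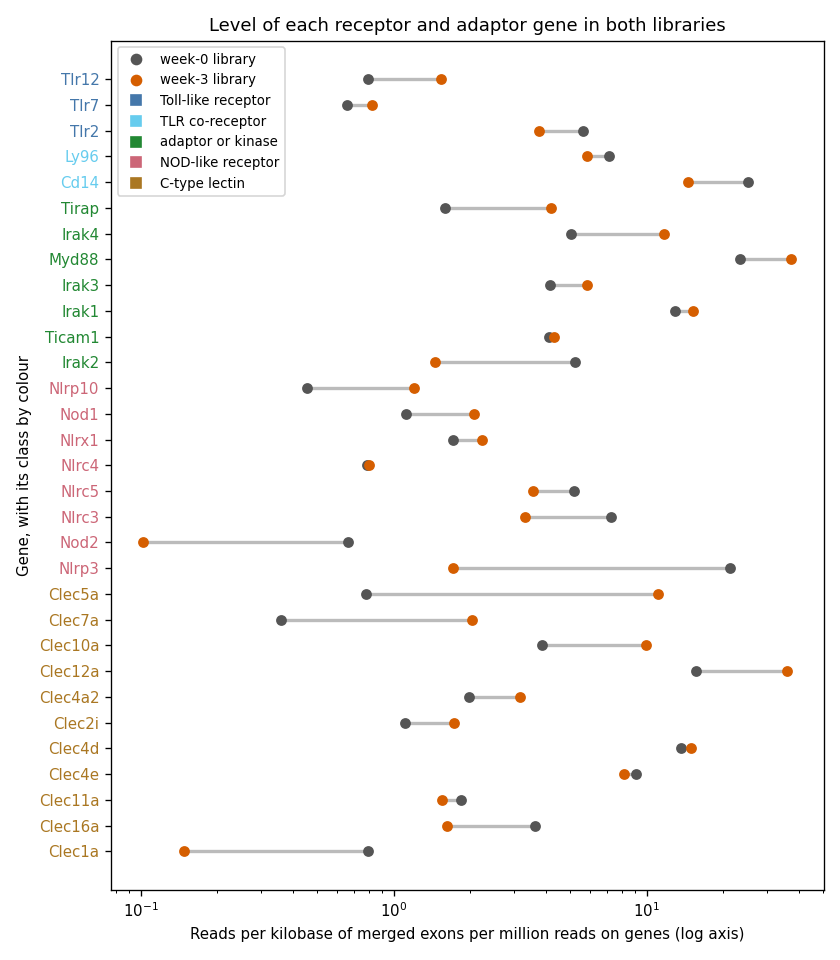
Reads per kilobase of merged exons per 1000000 reads on genes (log axis) for the 31 members with at least 20 reads, in the week-0 library (grey) and the week-3 library (orange), with gene names coloured by class. Nlrp3 stood at 21.3 and 1.71 and Clec5a at 0.778 and 11.1, whereas Myd88 and Clec12a were high in both libraries.

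The TLR genes were sparsely read in LSKs. Tlr2, a surface receptor for bacterial lipopeptides, had 107 reads (FPKM 5.59) in the week-0 library and 44 (3.76) 3 weeks later. Its log2 difference was -0.57 (95% interval -1.11 to -0.05), within 2-fold. Tlr2 had more reads than any other gene of the class, which came to 169 and 91 reads over all 12 genes. The class sum was 26.6 and 23.4 RPM, a ratio of 0.881 with an interval of 0.675 to 1.14, so no difference of the sum was detectable at this depth.

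Tlr12, which senses profilin of protozoan parasites together with Tlr11, had 16 and 19 reads (FPKM 0.700 and 1.36), and its log2 difference of 0.96 (interval -0.08 to 2.01) was just under 2-fold. Tlr7, an endosomal sensor of single-stranded RNA, had 17 and 13 reads (FPKM 0.232 and 0.291), a log2 difference of 0.32 with an interval from -0.84 to 1.45. Neither difference was larger than the counting error. The receptors that pair with Tlr2 were near the limit of detection, Tlr1 with 7 and 1 reads, and Tlr6 with 3 and 6. Tlr9, the sensor of unmethylated CpG DNA, had 10 and 3 reads. Tlr4, the lipopolysaccharide receptor, had 5 and 1 reads, and Tlr3, the receptor for double-stranded RNA, had 3 and 0. Tlr5, the flagellin receptor, had 0 and 3 reads, Tlr13 had 1 in each library, and Tlr8 and Tlr11 had none. A gene with 0 reads could still hold up to 3, which is 0.472 RPM at week-0 and 0.772 at week-3.

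**Figure D4:**
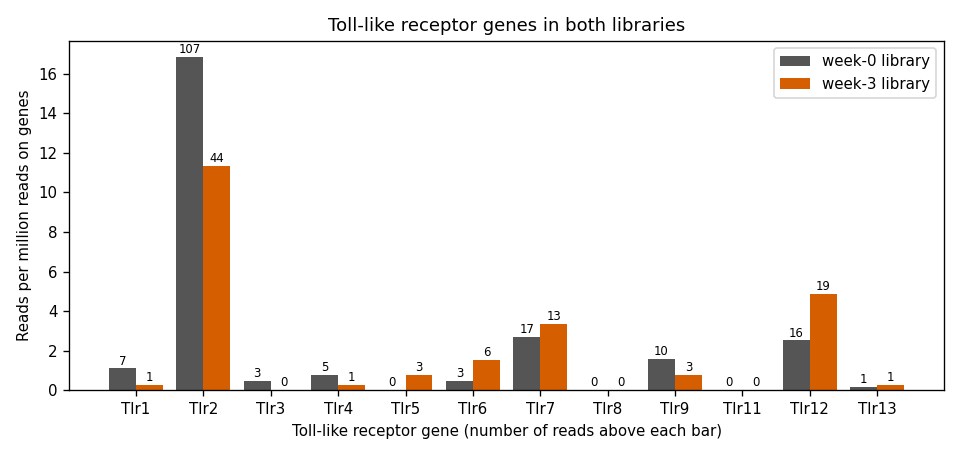
RPM for the 12 Toll-like receptor genes in the week-0 library (grey) and the week-3 library (orange), with the number of reads above each bar. Tlr2, with 107 and 44 reads, stands above the others in both libraries, and Tlr8 and Tlr11 had none.

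The co-receptors of Tlr4 were read far more than Tlr4 itself. Cd14, which hands lipopolysaccharide to Ly96 and Tlr4, had 278 reads (FPKM 27.8) before induction and 98 (16.0) after it. Its log2 difference was -0.79 (interval -1.14 to -0.46), which is lower at week-3 but within 2-fold. Ly96, the subunit that holds lipopolysaccharide on Tlr4, had 46 and 23 reads (FPKM 4.57 and 3.74) and a log2 difference of -0.29 (interval -1.08 to 0.46). Lbp, which extracts lipopolysaccharide for Cd14, was higher at week-3, with 284 and 358 reads and a log2 difference of 1.04 (interval 0.81 to 1.27). Among 12 genes for ligand delivery and receptor trafficking, 10 had at least 20 reads, and Lbp was the only one past the fold in either direction. That is 10% upwards, against 10.6% of all genes, and 0% downwards, against 15.6%. TMM and median-of-ratios scaling ended the call of Lbp. Unc93b1, which carries the endosomal TLRs out of the endoplasmic reticulum, had FPKM of 37.6 and 37.7. Cd180 and its partner Ly86, which form a TLR-related complex on B cells, had log2 differences of 0.61 and 0.86.

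All 7 adaptors and kinases were detected, with 2 past the fold upwards (28.6%, against 10.6% of all genes) and 1 downwards (14.3%, against 15.6%). Irak4, the kinase that Myd88 recruits first, had 160 and 228 reads (FPKM 4.65 and 10.8), a log2 difference of 1.22 (interval 0.92 to 1.52). Tirap, which bridges Tlr2 and Tlr4 to Myd88, had 50 and 80 reads (FPKM 0.970 and 2.54) and a log2 difference of 1.39 (interval 0.86 to 1.93). Irak2, a kinase of the same complex that sustains signalling, went the other way. It had 146 and 25 reads (FPKM 2.93 and 0.820), so that it was 3.57-fold lower (log2 difference -1.84, interval -2.51 to -1.22). Irak2 lies at chr6:113638467-113695026 of GRCm38.

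Myd88 was the most read adaptor, with 383 and 374 reads and FPKM of 13.0 and 20.8, a log2 difference of 0.68 (interval 0.47 to 0.88). Irak3, an inhibitor in this family, had 97 and 83 reads (FPKM 2.18 and 3.04) and a log2 difference of 0.48 (interval 0.04 to 0.92). Irak1 had 387 and 279 reads (FPKM 4.65 and 5.48) and a log2 difference of 0.24 (interval 0.01 to 0.46). Ticam1, the adaptor of Tlr3 and Tlr4 for interferon induction, had 78 and 50 reads (FPKM 4.10 and 4.30), and its log2 difference of 0.07 had an interval from -0.47 to 0.60. Irak2 was thus the only one of the 7 with a lower FPKM at week-3. Kits of this kind do not mark strand, and some of these genes share exon bases with a gene on the opposite strand, which covers 7.9% of the exon bases of Irak4 (Twf1), 9.0% of Tirap (Gm39318), 4.4% of Irak2 (Gm43963) and 11.3% of Myd88 (Acaa1a). Reads there cannot be told apart.

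Of the 31 members, an NLR gene lay farthest below 0. Nlrp3 (chr11:59541568-59566956), whose protein builds the best known inflammasome, had 549 reads (FPKM 16.8) before BA induction. In the other library it had 27 (FPKM 1.35), which is 12.4-fold lower (log2 difference -3.64, interval -4.25 to -3.08). The week-0 library stands high and the week-3 library low, with no other library of either group to set beside them. The 25 NLR genes together had 210 and 99.3 RPM, and without Nlrp3 the 24 others had 124 and 92.4 (ratio 0.745, interval 0.656 to 0.845).

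Nlrc3, which dampens innate signalling, had 325 and 91 reads (FPKM 3.91 and 1.79), a log2 difference of -1.13 (interval -1.48 to -0.79). Nod2, the sensor of muramyl dipeptide, had 21 and 2 reads (FPKM 0.381 and 0.0593), and its log2 difference of -2.68 had a wide interval from -5.82 to -0.65. Nlrp10 was the NLR gene past the fold upwards, with 13 and 21 reads (FPKM 0.457 and 1.21) and a log2 difference of 1.40 (interval 0.34 to 2.52). Nlrc5, the transactivator of MHC class I genes, had 280 and 117 reads (FPKM 3.56 and 2.43) and a log2 difference of -0.55 (interval -0.87 to -0.23). Nod1, which senses another cell wall fragment, had 36 and 41 reads (FPKM 0.940 and 1.75) and a log2 difference of 0.90 (interval 0.22 to 1.58). Thus Nod1 and Nod2 pointed in opposite directions in these libraries, with counting intervals that did not overlap. Nod2 met the read minimum through the week-0 library alone. Nlrx1, a mitochondrial NLR, had 63 and 50 reads (FPKM 2.42 and 3.14) and a log2 difference of 0.38. Nlrc4, the partner of the Naip flagellin sensors, had 24 and 15 reads (FPKM 0.984 and 1.01) and a log2 difference of 0.03. Both intervals held 0, and 11.9% of the exon bases of Nlrx1 are shared with Gm10686 on the opposite strand.

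The partners that join Nlrp3 in the inflammasome stayed within 2-fold. Pycard, the adaptor that joins Nlrp3 to caspase-1, had FPKM of 16.3 and 16.1, and Casp1 had 11.5 and 19.2. The cytokines that caspase-1 matures were lower at week-3. Il1b went from 144 reads to 24 (log2 difference -1.88, interval -2.56 to -1.25) and Il18 from 100 reads to 18 (-1.76, interval -2.58 to -1.03). Of 15 inflammasome genes on a list, 13 had at least 20 reads, and 3 were past the fold downwards (Il1b, Il18 and Casp4, 23.1%, against 15.6% of all genes) and 2 upwards (Mefv and Naip2, 15.4%, against 10.6%). Mefv, the pyrin gene, rested on 2 and 20 reads and Naip2 on 15 and 28. Both met the read minimum through the week-3 library alone. Of 9 listed partners of Nod1 and Nod2 that were found, 8 had enough reads. Of these, 25% were past the fold downwards (against 15.6% of all genes) and 12.5% upwards (against 10.6%). Birc3, a ubiquitin ligase of this complex, had 618 and 115 reads (log2 difference -1.72), and Slc15a3, a transporter of muramyl dipeptide, had 23 and 1 (-3.81). The week-0 library alone took Slc15a3 past the read minimum, so passing it and differing were not independent. Card9, which Nod2 shares with lectin receptors, was higher, with 25 and 50 reads (1.71). Ripk2, the kinase of Nod1 and Nod2, had 24 and 8 reads and a log2 difference of -0.88.

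A C-type lectin gene lay farthest above 0. Clec5a (chr6:40574894-40585821), a myeloid receptor that signals through Tyrobp, had 19 reads (FPKM 0.489) before induction and 165 (6.95) after it. It was 14.2 times as high at week-3, a log2 difference of 3.83 (interval 3.14 to 4.60). Its adaptor Tyrobp was abundant in both libraries, with FPKM of 171 and 236 (log2 difference 0.46).

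Clec12a (chr6:129342691-129365303), an inhibitory receptor for uric acid crystals and a known surface marker of stem cells in human acute myeloid leukemia, had the most reads of any member. It had 552 and 770 reads (FPKM 13.4 and 30.5), a log2 difference of 1.19 (interval 1.03 to 1.35). Clec10a, a galactose-binding lectin of macrophages and dendritic cells, had 71 and 112 reads (FPKM 1.92 and 4.95) and a log2 difference of 1.37 (interval 0.93 to 1.82). Mgl2, its close paralog, had 11 and 32 reads (log2 difference 2.25), and how reads matching both copies were counted is not given in the sources used here. Clec7a, the beta-glucan receptor dectin-1, had 6 and 21 reads (FPKM 0.270 and 1.54) and a log2 difference of 2.52 (interval 1.16 to 4.12).

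Clec1a and Clec16a were the lectin genes past the fold downwards. Clec1a, a receptor for fungal melanin, had 26 and 3 reads (FPKM 0.482 and 0.0909), a log2 difference of -2.41 (interval -4.77 to -0.70). Clec16a, a gene of endosomal trafficking and mitophagy rather than a surface receptor, had 192 and 53 reads (FPKM 2.74 and 1.24) and a log2 difference of -1.15 (interval -1.61 to -0.70). The paired receptors Clec4d and Clec4e, which sense mycobacterial glycolipid through Fcer1g, stayed within 2-fold. Clec4d had 139 and 93 reads (FPKM 9.14 and 9.999) and a log2 difference of 0.13, and Clec4e had 286 and 157 reads (FPKM 3.41 and 3.06) and -0.16. Both intervals held 0. Clec4a2, an inhibitory receptor, had 37 and 36 reads (FPKM 1.36 and 2.16). Clec11a, a secreted growth factor, had 35 and 18 (1.85 and 1.56), and Clec2i, a ligand of natural killer receptors, had 22 and 21 (0.632 and 0.987). These 3 were within 2-fold, with intervals that held 0.

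Of the 33 lectin genes, 25 lie on chromosome 6, and most of these are in 2 blocks. The block from Clec4a1 to Clec4e (chr6:122921848-123289870) held 9 members, of which 3 had at least 20 reads and none was past the fold. The block from Clec2j to Clec7a (chr6:128652416-129472779) held 13 members, of which 4 had at least 20 reads. In this block Clec12a and Clec7a were higher at week-3, and Clec1a, which lies between them, was lower. Clec5a lies outside both blocks. All 33 lectin genes together had 224 and 377 RPM, and without Clec12a the sums were 137 and 179.

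Clec5a, Clec7a, Clec10a and Clec12a are genes of myeloid cells, and most neutrophil and monocyte markers moved in the same direction. Other members read in myeloid cells did not follow them. Clec4d and Clec4e had log2 differences of 0.13 and -0.16, Tlr2 and Cd14 -0.57 and -0.79, and Nlrp3 -3.64. Clec10a is also a lectin of dendritic cells, whose markers with at least 20 reads were lower at week-3. Among the 10 neutrophil markers past the fold upwards, Elane had 5454 and 18391 reads. Of the monocyte and macrophage genes, Ly6c2 had 1118 and 3148 reads and Ccr2 had 34 and 242, whereas Fcgr1 was at 0 at week-0 and C1qc at 0 at week-3. Adgre1, a defining gene of macrophages, had 3 and 5 reads. The part of these cells in the lectin values was not tested. Markers of several other cell types were lower at week-3, as were Nlrp3, Nod2 and Clec1a. Of 9 conventional dendritic cell markers, 5 had at least 20 reads and all 5 were past the fold downwards, among them Cd74 with 2505 and 47 reads and Zbtb46 with 49 and 5. The other 4 had few reads, Xcr1 8 and 7, Itgax 8 and 8, Cd209a 1 and 2, and Batf3 3 and 0. Erythroid markers summed to 909 and 69.7 RPM with 6 of 6 past the fold downwards, plasma cell markers to 1095 and 245 RPM with 3 of 4, and plasmacytoid dendritic cell markers to 356 and 239 RPM with 4 of 6. The part of these cells in the lower values was also not tested.

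Among the adaptors and kinases of lectin receptors, all 16 genes had at least 20 reads. Malt1, Inpp5d and Syk were past the fold downwards, with log2 differences of -2.45, -1.56 and -1.06, and Card9 upwards. These shares, 18.8% downwards and 6.25% upwards, stand beside 15.6% and 10.6% of all genes. Malt1 and Card9 belong to the complex that leads from Syk to NF-kappaB, and Inpp5d encodes the phosphatase SHIP. Bcl10, the protein that joins Card9 to Malt1, had a log2 difference of -0.94, and Fcer1g had 0.67. The median over the list was -0.01, beside 0.07 for all genes.

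Transcription factors and cytokines downstream of TLRs were lower in larger shares than all genes. Of 8 transcription factors, 5 were past the fold downwards, 62.5% against 15.6% of all genes, and none upwards, against 10.6%. They were Relb (log2 difference -2.65), Nfkb2 (-2.30), Rela (-1.76), Irf7 (-1.69) and Rel (-1.50), and the median of the list was -1.60. Irf3, which drives interferon beta, had a log2 difference of 0.73. Of 16 genes that TLRs induce, all for cytokines or chemokines except Ptgs2, 12 had at least 20 reads. Of these, 8 were past the fold downwards (66.7%, against 15.6% of all genes) and 1 upwards (8.33%, against 10.6%). Ptgs2, the inducible cyclooxygenase, had 253 and 9 reads (-4.10), Il10 had 108 and 7 (-3.24), Cxcl2 had 1224 and 105 (-2.83) and Tnf had 1131 and 119 (-2.54). Il1b, Ccl4 (-1.90), Ccl5 (-1.44) and Ccl3 (-1.19) made up the rest. Ccl5, with 40 and 9 reads, met the read minimum through the week-0 library alone. Ccl2, a chemokine for monocytes, was the exception, with 43 and 193 reads (2.88). Il12a was at -0.01.

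Negative regulators divided between directions. Tnfaip3, the deubiquitinase A20, had 5552 and 177 reads and was 19.2-fold lower (log2 difference -4.26, interval -4.49 to -4.05). Nfkbia, the inhibitor of NF-kappaB, had 15687 and 1612 reads (-2.57), and Socs1 (-1.53) and Tnip1 (-1.37) were also lower. Il1rl1, the interleukin-33 receptor of mast cells, had 14 and 116 reads (3.76), and Nrros (1.29) and Dok3 (1.12) were higher. Thus 4 of the 12 were past the fold downwards (33.3%, against 15.6% of all genes) and 3 upwards (25%, against 10.6%). Il1rl1 moved with most mast cell and basophil markers, of which 7 of 8 were past the fold upwards. Prss34 was past it downwards, with 1300 and 380 reads (-1.06). The part of these cells in Il1rl1 was not tested. Of the 20 downstream kinases and ubiquitin ligases with at least 20 reads, 4 were past the fold downwards (20%, against 15.6% of all genes). None was past it upwards, against 10.6% of all genes. Pik3ap1, Map3k8 and Peli2 had log2 differences of -2.68, -2.16 and -1.92. Ube2v1 had 21 reads in the first library and none in the second, which is 4.28-fold lower when the second is set to 3 reads. Its counting interval lay below a log2 ratio of -1.67, and the first library alone met the read minimum. Traf6, the ubiquitin ligase that the IRAK kinases activate, had a log2 difference of -0.74. Over all 10 lists, taking each gene once, 33 of 114 genes with enough reads were past the fold downwards (28.9%, against 15.6% of all genes) and 11 upwards (9.65%, against 10.6%). The lists were chosen with earlier results of these data known, so their shares describe these libraries and are not independent support.

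**Figure D5:**
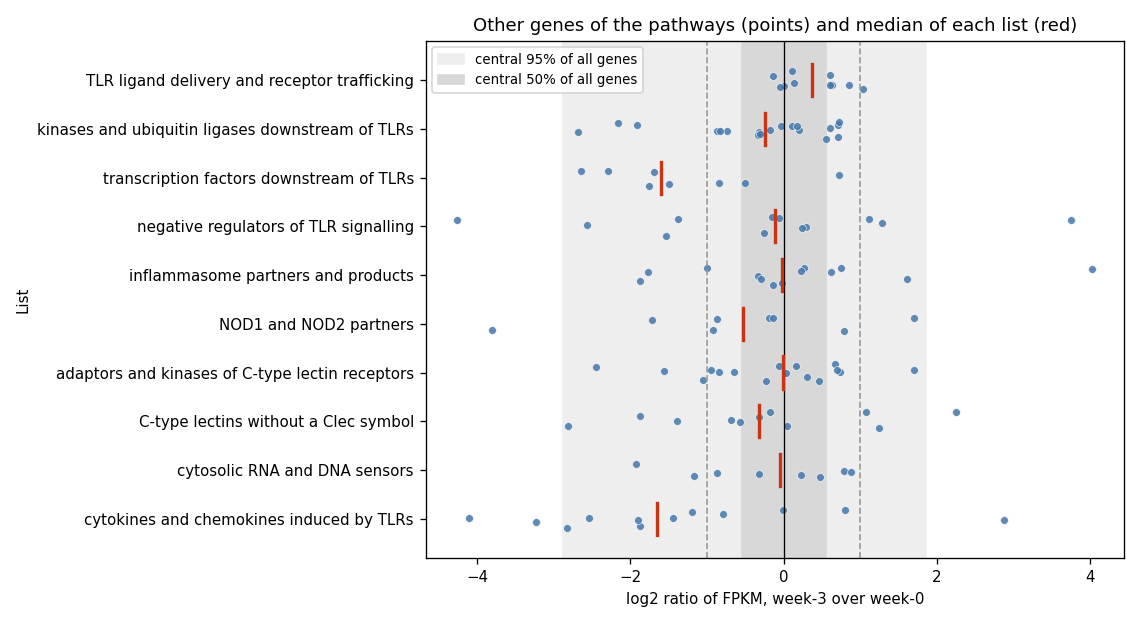
Log2 ratio of FPKM, week-3 over week-0, for other genes of the TLR, NLR and lectin pathways with at least 20 reads (points, 1 per gene, spread vertically at random), with the median of each list in red and the central 50% and 95% of all genes in grey. Ube2v1, without reads at week-3, counts in its median but is not drawn. The lists of transcription factors and of cytokines have medians of -1.60 and -1.66.

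Members with fewer than 20 reads allow no statement on a difference. Of the 26 with 1 to 18 reads, 13 were seen in both libraries, 8 at week-0 alone with at most 7 reads, and 5 at week-3 alone with at most 3 reads. Nlrp1a, the inflammasome sensor described in hematopoietic progenitors, had 12 and 6 reads, and Nlrp6 had 9 and 5. Nlrp1a and Nlrp1b, like the Clec2 and Clec4a genes, have near-identical neighbours, so reads between such copies are uncertain. The 22 members without reads were 11 lectin genes, 9 NLR genes and 2 TLR genes. They included Nlrp2, Nlrp5 and Nlrp14, which are known from oocytes and early embryos, and the Kupffer cell lectin Clec4f.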

How the data were processed

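RNA of sorted LSKs was prepared with the SMARTer Ultra Low Input kit and sequenced as paired ends. After trimming, the authors aligned reads to GRCm38 (mm10) with TopHat2, version 2.0.9 in the submitters' processing notes. The deposited counts are whole reads per gene, not normalized. The deposited FPKM divide these by exon length and by the reads on genes. The counting tool, the annotation release and the sex and age of the mice are not given in the sources used here. No columns of other samples were present (0 left out).

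Samples were grouped by the labelled time, with 1 library per group. Both tables were joined by gene identifier. Ratios are of the deposited FPKM, and intervals of 95% come from the reads. Depth was 6356164 and 3886695 reads. Genes past the fold had at least 20 reads over both libraries and a ratio of at least 2 or at most 0.5. Every member with at least 20 reads is named, as are pathway genes past the fold and up to 2 well-read others per list. Further low-count members and pathway genes within 2-fold were added for their role after their values were seen. The members and lists were chosen with earlier results of these data known. Merged exons come from GENCODE M21, where all 79 members were found, 64 with identical coordinates. Alternatives used TMM in edgeR 4.0.16 and size factors of DESeq2 1.42.0 in R 4.3.3, and edgeR's exact test with a fixed biological coefficient of variation. Such a test compares the 2 libraries and not the conditions. Other steps ran in Python 3.11.15 (with scipy 1.17.1, pandas 2.3.3, numpy 2.4.6) and figures in matplotlib 3.10.9.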

Additional observations from a re-analysis of the deposited data

How the results depend on the processing

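With TMM or median-of-ratios scaling, which shift every log2 difference by -0.11 or -0.09, the same 7 and 6 members were past the fold, as they were when the counting interval had to leave out 1 and with edgeR's exact test at a fixed biological coefficient of variation of 0.1 (q under 0.05). At 0.4, 1 member was higher (Clec5a) and 1 lower (Nlrp3), with 1 and 2 pathway genes, beside 0.410% and 1.63% of all genes. Without a read minimum (at least 1 read), 14 of 57 members were higher and 18 lower, beside 19.9% and 25.9% of all genes. Fold limits of 1.5 and 0.67 gave 12 higher members and 29 higher pathway genes, beside 23.7% of all genes. Limits of 4 and 0.25 gave 2 members higher and 3 lower, with 4 and 14 pathway genes, beside 2.08% and 6.21% of all genes. A pseudocount of 1 on the FPKM left 5 members higher (without Nlrp10 and Tirap), 2 lower (Nlrp3 and Irak2) and 6 pathway genes higher, beside 5.02% of all genes higher and 8.11% lower. It shrinks genes of low FPKM and moved 7 of the 31 log2 differences beyond their counting intervals. The other counts stayed within 1.5 times, and no member past the fold changed direction under any of these settings. With a minimum of 50 reads, 5 members were higher and 4 lower (without Clec7a, Nlrp10, Clec1a and Nod2), beside 8.87% and 12.7% of all genes. No paired analysis was possible because each group is 1 library, and for the same reason no library could be left out. Depth limits most TLR genes and the members under 20 reads.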

Other observations

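C-type lectins without a Clec symbol and the cytosolic sensors of nucleic acids were described from lists of their own. Of 23 such lectins, 11 had at least 20 reads. Past the fold were 27.3% of the 11 in each direction, against 15.6% of all genes downwards and 10.6% upwards. Cd69, an early activation antigen, had 9370 and 1560 reads in the week-0 and week-3 libraries, a log2 difference of -1.88 (interval -1.96 to -1.80). Cd72, a B-cell co-receptor, had 514 and 120 reads (-1.39), and Klrd1, a natural killer receptor, had 23 and 2 (-2.81). Klrd1 met the read minimum through the week-0 library alone, and Mgl2 (11 and 32 reads) met it through the week-3 library alone. Mgl2 (2.25), P-selectin (Selp, 1.24) and Cd302 (1.08) were past the fold upwards, Cd302 not so after TMM or median-of-ratios scaling. Cd93, an early progenitor antigen, had 1063 and 520 reads (-0.32), within 2-fold.

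All 8 cytosolic sensor genes found had at least 20 reads. Ifih1, the sensor of long double-stranded RNA, had 118 and 19 reads and a log2 difference of -1.93 (interval -2.71 to -1.22), and Zbp1 had 44 and 12 reads (-1.16). These make 25% past the fold downwards, against 15.6% of all genes. None was past the fold upwards, against 10.6% of all genes. The adaptors Mavs and Tmem173 (STING), which lie downstream of RNA and DNA sensing, had log2 differences of 0.79 and 0.88 on 99 and 105 and on 472 and 533 reads.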
